A study of Mus musculus with 12 samples.

Results

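The thick ascending limb of the loop of Henle and the distal convoluted tubule were followed through 30 genes of salt, calcium and magnesium transport and the kinases that govern it. The rule was the gene symbol alone, from a list of genes known for these segments, and all 30 symbols were found once each among the 43346 genes of the deposited table. Messenger RNA of mouse kidney was sequenced in 12 libraries at day 1, 6 from mice with HP-AKI (samples 7, 8, 9, 11, 12 and 13) and 6 from sham mice (samples 1 to 6). AKI stands for acute kidney injury, and HP-AKI usually means the heme protein-induced form, which the labels leave unexplained. Strain, sex, age, genotype and what the sham animals received are not given in the sources used here, and no source states that each library is its own animal, so every p-value reflects spread among libraries, which may be technical. The tissue is labelled kidney, with no zone or sort named, so fewer cells of a segment and less RNA per cell cannot be told apart in any value below.

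In the thick ascending limb, sodium, potassium and chloride enter through the apical cotransporter NKCC2 (Slc12a1), potassium returns to the lumen through ROMK (Kcnj1), and chloride leaves across the basolateral membrane with the help of barttin (Bsnd). The same cells secrete uromodulin (Umod), the most abundant protein of normal urine. The distal convoluted tubule that follows takes up sodium chloride through NCC (Slc12a3) and magnesium through TRPM6, and its later part takes up calcium through TRPV5, the calbindins and the exchanger NCX1 (Slc8a1). WNK kinases act through SPAK (Stk39) and OSR1 (Oxsr1), which phosphorylate both cotransporters, and a ubiquitin ligase of KLHL3 and CUL3 degrades the WNKs.

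The sequence just upstream of the start is shown for 6 members whose levels took different courses in the same kidney libraries. Any link between sequence and level was not tested. RefSeq windows of the GRCm38.p6 build were found for 24 of the 30 members, 33 windows in all, and the 250 bases before the start are printed 5′ to 3′ on the gene's strand. Capitals mark matches, on either strand, to 6 motifs, which are GTTAAT (a homeodomain core), AAGGTCA (the site of estrogen-related receptors), GCCNNNGGC (AP-2), GNACA and TGTNC with 3 bases between them (a glucocorticoid response element), TGANTCA (AP-1) and TATAAA (known as the TATA box). The starts are those of RefSeq and can differ from the deposited gene bounds. Umod and Slc12a1 belong to the thick ascending limb, Slc12a3, Pvalb and Trpm6 to the distal convoluted tubule, and Sgk1 is the member that rose most. The windows lie at chr7:119479263-119479512, minus strand (Umod), chr2:125152350-125152599, plus strand (Slc12a1), chr8:94328958-94329207, plus strand (Slc12a3), chr15:78206401-78206650, minus strand (Pvalb, the first of 2 starts), chr19:18749480-18749729, plus strand (Trpm6) and chr10:21993640-21993889, plus strand (Sgk1, the fifth of 6 starts).
Umod: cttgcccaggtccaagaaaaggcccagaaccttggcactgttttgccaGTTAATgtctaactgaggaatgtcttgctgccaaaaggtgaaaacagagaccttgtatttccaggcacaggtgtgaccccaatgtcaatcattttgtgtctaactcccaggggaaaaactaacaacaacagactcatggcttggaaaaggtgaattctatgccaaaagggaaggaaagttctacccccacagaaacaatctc
Slc12a1: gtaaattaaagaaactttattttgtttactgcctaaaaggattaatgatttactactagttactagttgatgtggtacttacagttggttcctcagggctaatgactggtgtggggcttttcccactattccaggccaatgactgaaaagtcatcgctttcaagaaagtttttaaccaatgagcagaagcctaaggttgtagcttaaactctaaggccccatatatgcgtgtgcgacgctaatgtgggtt
Slc12a3: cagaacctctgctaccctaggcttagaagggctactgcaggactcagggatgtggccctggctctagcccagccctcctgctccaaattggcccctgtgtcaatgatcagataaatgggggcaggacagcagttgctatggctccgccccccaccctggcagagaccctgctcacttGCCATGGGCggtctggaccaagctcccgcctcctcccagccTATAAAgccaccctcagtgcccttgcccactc
Pvalb: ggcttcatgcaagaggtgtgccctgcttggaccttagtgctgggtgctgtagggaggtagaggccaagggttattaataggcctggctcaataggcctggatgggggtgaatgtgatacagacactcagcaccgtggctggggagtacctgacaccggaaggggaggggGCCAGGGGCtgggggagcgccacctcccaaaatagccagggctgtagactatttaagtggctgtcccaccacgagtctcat
Trpm6: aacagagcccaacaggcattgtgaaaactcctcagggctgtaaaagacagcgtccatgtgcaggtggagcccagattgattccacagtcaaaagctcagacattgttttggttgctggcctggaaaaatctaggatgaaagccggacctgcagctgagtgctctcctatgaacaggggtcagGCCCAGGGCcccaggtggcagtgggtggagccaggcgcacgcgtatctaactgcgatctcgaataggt
Sgk1: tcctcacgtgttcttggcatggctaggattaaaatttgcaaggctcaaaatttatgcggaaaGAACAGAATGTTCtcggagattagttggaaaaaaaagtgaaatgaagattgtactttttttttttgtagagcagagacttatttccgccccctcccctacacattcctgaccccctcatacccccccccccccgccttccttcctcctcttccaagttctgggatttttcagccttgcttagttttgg

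The capitals in the Slc12a3, Pvalb and Trpm6 windows are AP-2 letters, and the Slc12a3 window also holds TATAAA. AP-2 letters stood in 11 of the 33 member windows and in 13.7% of all 32851 windows of this length, and no motif overlapped another in the windows shown. The Umod window holds GTTAAT once, found in 2 of 33 member windows and 6.43% of all windows, and the Slc12a1 window holds none of the 6 motifs. The Sgk1 window holds the 13-letter glucocorticoid element, found in 0.387% of all windows and in no other window of a member. The element begins 188 bases before the start. The other Sgk1 windows, not printed, lack it, and the 0.387% is a share per window, not per gene with 6 starts. Of these others, the window that begins at 21994416 holds AP-2 letters and TATAAA, and that at 21991973 holds TATAAA. Those at 21978422 and 21985854 hold AAGGTCA on either strand, and that at 21881934 holds none of the 6 motifs. Counts per gene do not show which Sgk1 start was used, and any part of the element in the rise was not tested. TGANTCA (6.75% of all windows) was in no member window, AAGGTCA (4.08%) was in 4 of 33 and TATAAA (12.4%) in 5 of 33. These matches describe letters only.

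The HP-AKI libraries held 31624522 to 40630917 counts and the sham libraries 35201197 to 41951129. The 30 members took 0.936% to 1.16% of all counts in HP-AKI and 1.61% to 1.72% in sham. Counts were compared with edgeR's quasi-likelihood F-test, with Benjamini-Hochberg adjustment over the 17470 genes that passed the filter on low counts, which all 30 members did, and a gene is called when its adjusted p is below 0.05. Levels of a gene are given as CPM (counts scaled to a common library size with TMM factors). Sham 1 and sham 2 stood apart from the other sham libraries, since they held the 2 highest sham values of 17 members and the 2 lowest of 11, with Pvalb and Nedd4l the exceptions. HP-AKI 8 held the highest HP-AKI value of 13 members and the lowest of 6. Umod, Slc12a1, Slc12a3 and Pvalb, which define the segments, were found in every library. The labels name no batch, and values without these 3 libraries are printed where they change the call of a gene named here.

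Of the 30 members, 21 fell, 4 rose and 5 were not called. Over all genes tested 72.8% were called, 35.2% lower and 37.7% higher, so a call by itself was common. The median log2 fold change of the members was -1.26, and that of all genes tested was 0.04. Falls of at least 2-fold were found for 16 members, where 17.1% of all genes tested fell that far. Falls of at least 4-fold were found for 8 members, namely Pvalb, Slc8a1, Slc12a1, Calb1, Tmem52b, Bsnd, Kcnj1 and Ppp1r1a, where 5.08% of all genes tested fell that far. All 6 HP-AKI values lay below all 6 sham values in 17 members (25.8% of all genes tested) and above them in 2, Oxsr1 and Sgk1 (26.7%), so that 11 members overlapped, while 52.4% of all genes tested did not. Without sham 1, sham 2 and HP-AKI 8, the 21 members that fell were again called lower, with Irx1 added.

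**Figure D1:**
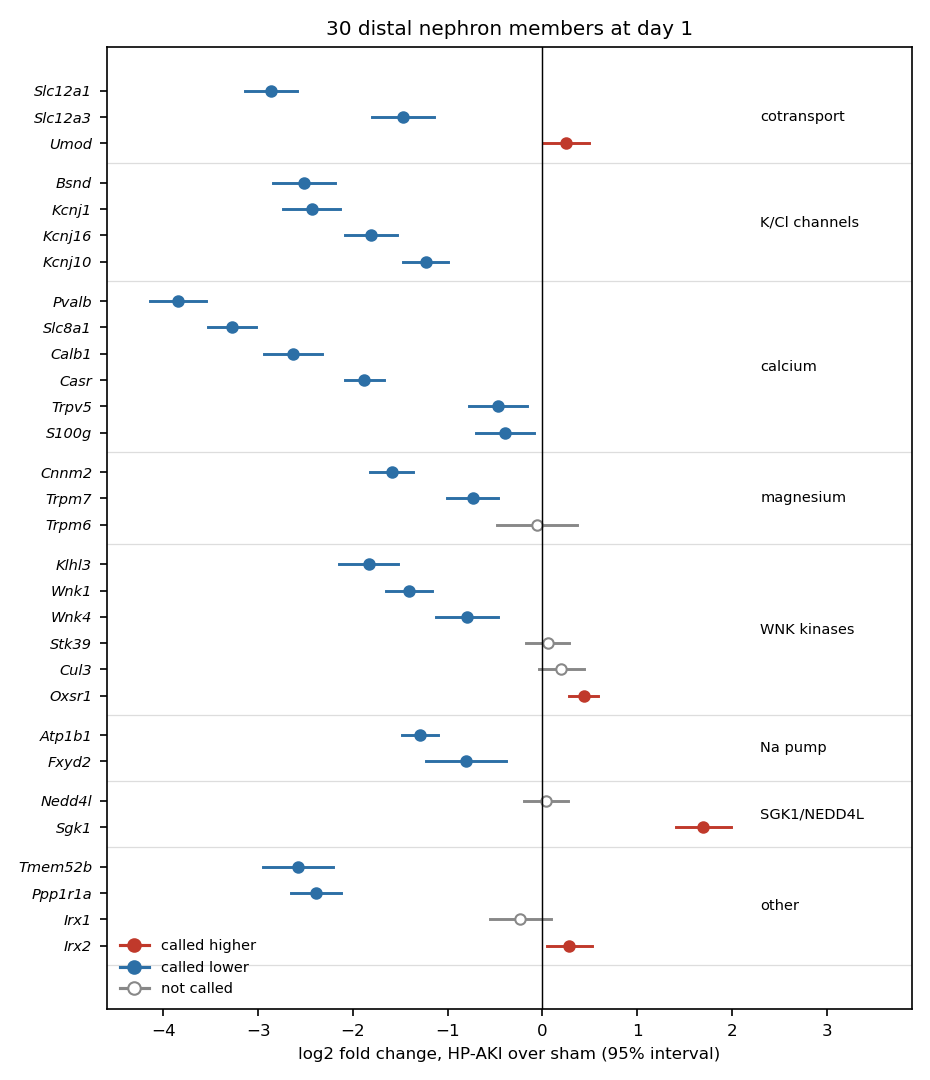
Log2 fold change of each member (HP-AKI over sham, x axis) with its 95% interval, grouped by role on the y axis. Blue points were called lower (21), red points higher (4) and open grey points were not called (5). Pvalb lies farthest to the left at -3.85 and Sgk1 farthest to the right at 1.70.

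**Figure D2:**
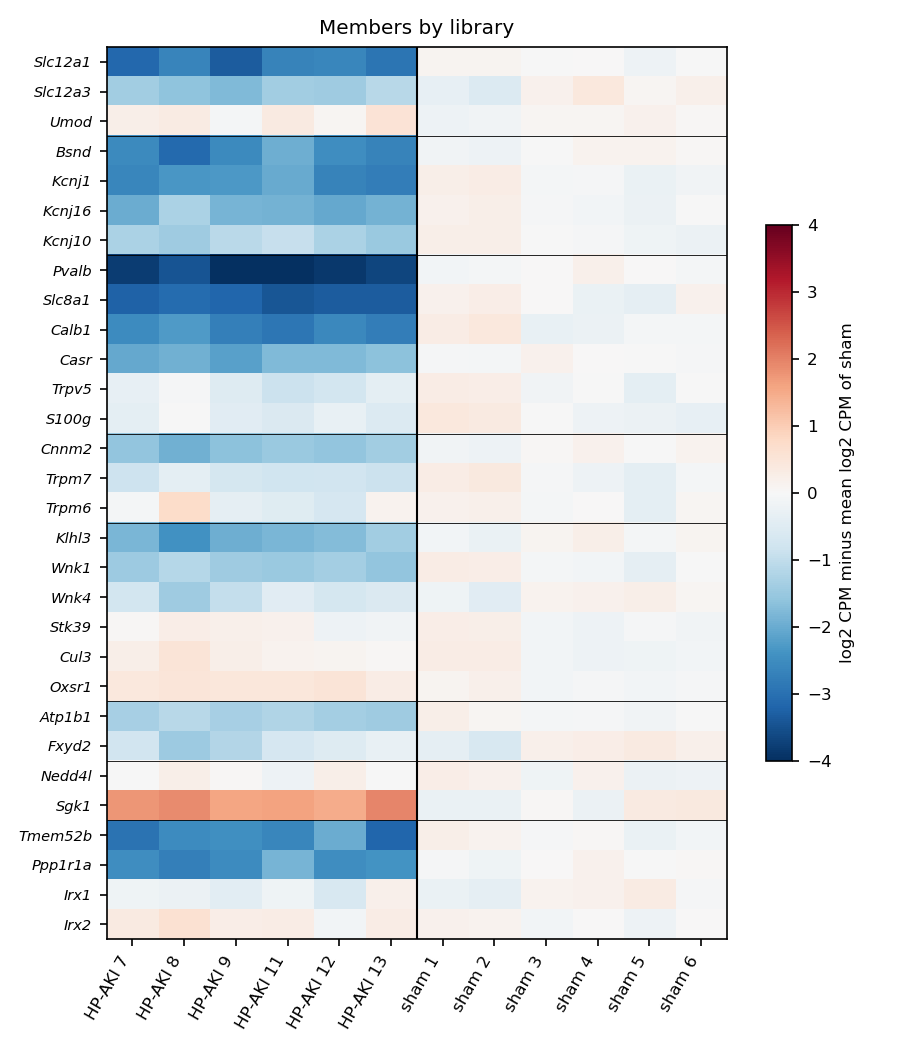
Log2 CPM of each member (rows) in each library (columns, HP-AKI left of sham), minus the mean log2 CPM of sham, with blue for lower and red for higher values. The fall of Slc12a1, Pvalb and Slc8a1 appears in all 6 HP-AKI libraries, and Sgk1 is higher in all 6.

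Among the 3 genes of the apical cotransporters and uromodulin, both cotransporters fell and Umod was narrowly called higher. Umod had 3919, 5029 and 6009 CPM in HP-AKI, against 3571, 4300.3 and 4621 CPM in sham (lowest, median and highest of 6, as in all such values below). The groups overlapped, and the highest value was that of HP-AKI 13. The log2 fold change was 0.25 ± 0.11 (SE), past the threshold at an adjusted p of 0.0492 (edgeR), but only 7 of 20 alternatives called it. It was lost when any 1 of sham 1, 2, 3, 4 or 6 or HP-AKI 7, 8, 11 or 13 was left out (0.18 to 0.26), and without the 3 libraries that stood apart it was 0.11 (adjusted p 0.360, edgeR). With all 12 libraries it was also lost under RLE scaling (0.23), upper-quartile scaling (0.20) and no filter beyond 1 count (0.21). Per length, Umod stood at rank 6 of the 17470 tested genes in HP-AKI and rank 9 in sham, at means of 2002 and 1680.2 RPKM computed from the counts. Slc12a1, the target of loop diuretics, had 224, 324 and 366 CPM in HP-AKI, against 1943, 2234 and 2423 CPM in sham. All HP-AKI libraries lay far below all sham libraries, a 7.26-fold fall (log2 fold change -2.86 ± 0.13, adjusted p 4.71e-11, edgeR), and its rank per length was 1036 in HP-AKI and 99 in sham. Slc12a3, the thiazide target, had 172, 221 and 273 CPM in HP-AKI, against 403, 648 and 786 CPM in sham. This was a smaller fall of 2.78-fold, again without overlap (log2 fold change -1.48 ± 0.15, adjusted p 4.85e-07, edgeR). The 2 lowest sham values of Slc12a3 were those of sham 1 and sham 2 (471 and 403 CPM), and without the 3 libraries the log2 fold change was -1.67.

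**Figure D3:**
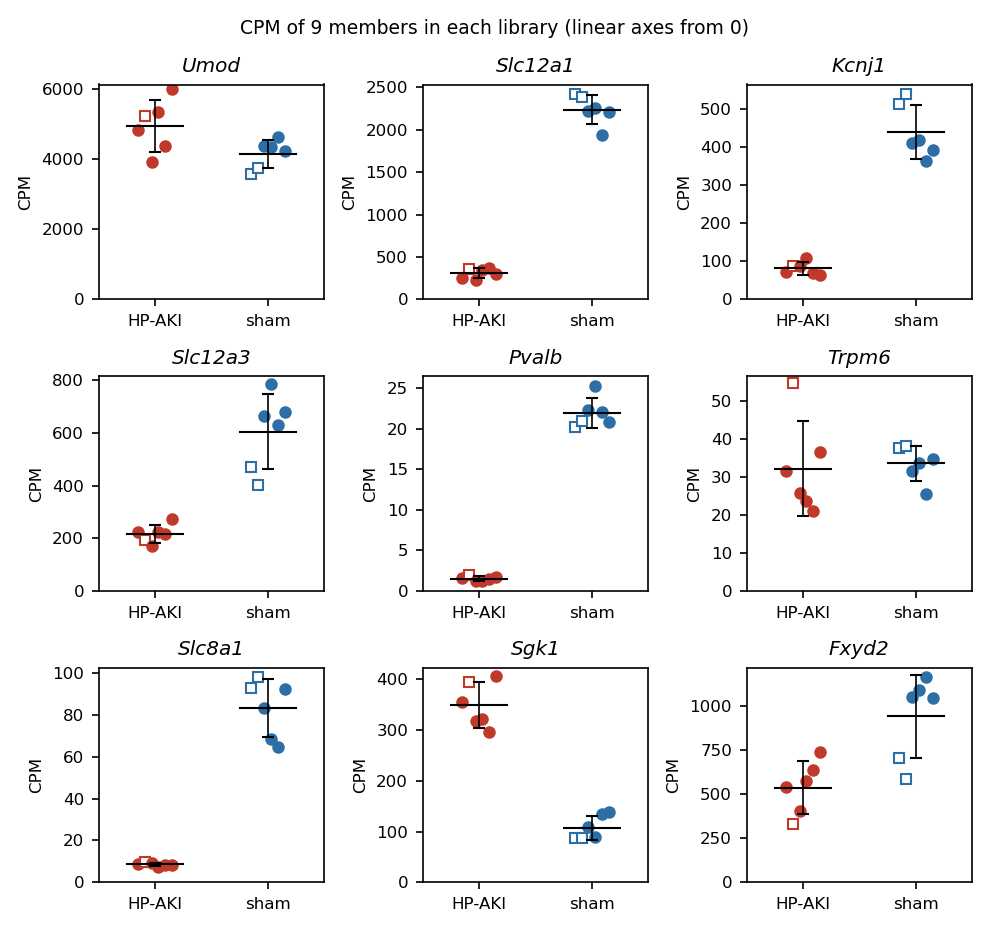
CPM of 9 members in each library on linear axes that start at 0, with HP-AKI left of sham, the mean as a line and the SD as a bar (n = 6 each). Open squares are HP-AKI 8, sham 1 and sham 2. The groups overlap for Umod, Trpm6 and Fxyd2 and are apart for the other 6 genes.

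All 4 channel genes fell, most for Bsnd and then Kcnj1, Kcnj16 and Kcnj10, each without overlap of the groups. Bsnd had 6.67, 9.96 and 14.9 CPM in HP-AKI, against 50.1, 58.7 and 64.5 CPM in sham, a 5.73-fold fall (log2 fold change -2.52 ± 0.15, adjusted p 1.04e-09, edgeR). Kcnj1 had 63.7, 79.5 and 108 CPM in HP-AKI, against 362, 415 and 540.3 CPM in sham, a 5.41-fold fall (log2 fold change -2.44 ± 0.14, adjusted p 7.03e-10, edgeR). Thus the partners of NKCC2 on both membranes were low in libraries whose median Umod level was above that of sham. Kcnj10 and Kcnj16 encode Kir4.1 and Kir5.1, which form the basolateral potassium channel of the distal convoluted tubule. Their levels per length were far apart, with sham means of 21.6 RPKM for Kcnj10 and 267 RPKM for Kcnj16. The cells that held each message were not measured. Kcnj16 had 251, 283 and 431 CPM in HP-AKI, against 887, 1021 and 1219 CPM in sham. Its highest HP-AKI value was that of HP-AKI 8, with the other 5 at 251 to 289 CPM, and the log2 fold change was -1.81 ± 0.13 (adjusted p 7.69e-09, edgeR). Kcnj10 had 41.6, 48.4 and 61.2 CPM in HP-AKI, against 98.0, 113 and 137 CPM in sham, the smallest fall of the 4 at 2.35-fold (log2 fold change -1.23 ± 0.11, adjusted p 1.02e-07, edgeR).

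All 6 calcium genes fell, but by very different amounts, from 14.4-fold for Pvalb to 1.32-fold for S100g. Pvalb, the calcium buffer parvalbumin that marks the early distal convoluted tubule, had 1.18, 1.54 and 2.01 CPM in HP-AKI, against 20.2, 21.5 and 25.3 CPM in sham. Every HP-AKI library lay far below the lowest sham library (log2 fold change -3.85 ± 0.14, adjusted p 5.34e-12, edgeR), and its fall stood at place 63 among all genes tested. Slc8a1, the basolateral sodium-calcium exchanger, had 7.59, 8.48 and 9.70 CPM in HP-AKI, against 64.4, 87.9 and 98.0 CPM in sham, a 9.69-fold fall (log2 fold change -3.28 ± 0.12, adjusted p 5.62e-12, edgeR). Calb1, calbindin-D28k, which carries calcium through the cell, had 93.6, 111 and 145 CPM in HP-AKI, against 565, 662 and 928 CPM in sham, a 6.22-fold fall (log2 fold change -2.64 ± 0.14, adjusted p 3.35e-10, edgeR). Its 2 highest sham values were those of sham 1 and sham 2, and without the 3 libraries the log2 fold change was -2.56.

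Casr, the calcium-sensing receptor of the thick ascending limb, had 14.3, 18.03 and 20.9 CPM in HP-AKI, against 61.2, 63.7 and 73.8 CPM in sham, a 3.68-fold fall (log2 fold change -1.88 ± 0.09, adjusted p 1.53e-10, edgeR). The apical calcium channel Trpv5 had 20.8, 27.9 and 37.0 CPM in HP-AKI, against 28.7, 37.8 and 46.7 CPM in sham, and the groups overlapped (log2 fold change -0.47 ± 0.14, adjusted p 0.00801, edgeR). S100g, calbindin-D9k, had 492, 547 and 730.2 CPM in HP-AKI, against 580.0, 687 and 992 CPM in sham. It was the second most abundant member per length, at rank 14 of all tested genes in HP-AKI and 11 in sham, and its groups overlapped (log2 fold change -0.40 ± 0.14, adjusted p 0.0210, edgeR). This call was lost without sham 1 (-0.31, adjusted p 0.0511, edgeR) and with scaling by library size only (-0.27). Thus the apical entry channel and the small calbindin kept most of their sham level, while the exchanger, parvalbumin and the large calbindin did not.

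Of the 3 magnesium genes, Cnnm2 and Trpm7 fell and Trpm6 was not called. Trpm6, the apical magnesium channel of the distal convoluted tubule, had 21.0, 28.6 and 54.8 CPM in HP-AKI, against 25.4, 34.2 and 38.1 CPM in sham. The HP-AKI values enclosed the sham range on both sides, with HP-AKI 8 at the top and HP-AKI 12 at the bottom (21.0 CPM). Its log2 fold change was -0.06 ± 0.20 with a 95% interval of -0.48 to 0.36 (adjusted p 0.792, edgeR), which does not show that the level was the same. Without HP-AKI 8 it was -0.30 (adjusted p 0.0612, edgeR). Trpm7, a widely expressed channel with a kinase domain, had 184, 195 and 252 CPM in HP-AKI, against 255, 320.5 and 431 CPM in sham, a 1.67-fold fall without overlap (log2 fold change -0.74 ± 0.13, adjusted p 8.36e-05, edgeR). Cnnm2, a basolateral membrane protein needed for magnesium reabsorption, had 6.64, 8.51 and 9.62 CPM in HP-AKI, against 21.8, 25.7 and 28.3 CPM in sham, a 3.02-fold fall (log2 fold change -1.59 ± 0.10, adjusted p 2.66e-09, edgeR).

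Of the 6 genes of the kinase cascade, Wnk1, Wnk4 and the ligase adaptor Klhl3 fell, Oxsr1 rose, and Stk39 and Cul3 were not called. Wnk1 had 313, 343 and 421 CPM in HP-AKI, against 715, 902 and 1136 CPM in sham, a 2.66-fold fall without overlap (log2 fold change -1.41 ± 0.11, adjusted p 2.54e-08, edgeR). The kidney has a short Wnk1 transcript of the distal convoluted tubule that lacks the kinase domain, and counts per gene do not separate it from the long one. Wnk4 had 40.4, 65.6 and 80.0 CPM in HP-AKI, against 78.9, 118 and 127 CPM in sham, with HP-AKI 11 above sham 2 (log2 fold change -0.80 ± 0.15, adjusted p 2.26e-04, edgeR). Klhl3, which recruits the WNKs to the ligase, had 4.72, 7.17 and 9.77 CPM in HP-AKI, against 21.0, 25.8 and 29.998 CPM in sham, a 3.57-fold fall (log2 fold change -1.84 ± 0.15, adjusted p 2.39e-08, edgeR). Cul3, the ligase scaffold shared with many other adaptors, had 243, 267 and 334 CPM in HP-AKI, against 203, 219 and 292 CPM in sham and was not called at 0.20 ± 0.11 (95% interval -0.04 to 0.43, adjusted p 0.119, edgeR). It was called higher without sham 1 (0.25), without sham 2 (0.26), without all 3 libraries (0.26) and with scaling by library size only (0.32).

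Below the WNKs, Oxsr1 had 87.1, 98.4 and 102 CPM in HP-AKI, against 66.0, 69.1 and 82.9 CPM in sham. All HP-AKI libraries were above all sham libraries, by 1.35-fold in the fit (log2 fold change 0.43 ± 0.07, adjusted p 8.14e-05, edgeR), and its relative spread among HP-AKI libraries was the smallest of the 30 members at 5.37%. Stk39, which encodes SPAK, the main kinase of NCC, had 46.0, 57.1 and 63.9 CPM in HP-AKI, against 45.7, 50.4 and 64.4 CPM in sham, with broad overlap (log2 fold change 0.05 ± 0.11, 95% interval -0.18 to 0.28, adjusted p 0.666, edgeR). Both WNKs were thus called lower, and neither Oxsr1 nor Stk39 was.

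Both sodium pump members fell. Atp1b1, the beta subunit that brings the pump to the basolateral membrane, had 1324, 1429 and 1652 CPM in HP-AKI, against 3228, 3489 and 4178 CPM in sham, a 2.45-fold fall without overlap (log2 fold change -1.29 ± 0.09, adjusted p 3.97e-09, edgeR). Fxyd2, the gamma subunit that tunes the pump and is altered in a form of inherited magnesium wasting, had 334, 559 and 738 CPM in HP-AKI, against 587, 1049 and 1164 CPM in sham (log2 fold change -0.81 ± 0.20, adjusted p 0.00202, edgeR). The overlap of Fxyd2 came with HP-AKI 12 and HP-AKI 13 (635 and 738 CPM) and the low sham 1 and sham 2 (708 and 587 CPM), and without the 3 libraries the log2 fold change was -0.95. Neither gene is confined to these segments, since the pump serves every tubule cell.

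Sgk1, the kinase induced by aldosterone and glucocorticoids that protects sodium channels and NCC from removal, was the member that rose most. It had 295, 339 and 407 CPM in HP-AKI, against 87.1, 99.5 and 139 CPM in sham, 3.24-fold higher in HP-AKI without overlap (log2 fold change 1.70 ± 0.14, adjusted p 2.58e-08, edgeR). The 2 lowest sham values were again those of sham 1 and sham 2, and without the 3 libraries the log2 fold change was 1.48. Its rank per length was 734 in HP-AKI and 2744 in sham. Nedd4l, the ubiquitin ligase that SGK1 restrains, had 105, 122 and 142 CPM in HP-AKI, against 104, 121 and 146 CPM in sham, almost the same range in both groups (log2 fold change 0.04 ± 0.11, 95% interval -0.19 to 0.27, adjusted p 0.755, edgeR).

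Of the 4 remaining members, Tmem52b and Ppp1r1a fell, Irx2 was called higher and Irx1 was not called. Tmem52b, a transmembrane protein, had 37.5, 57.2 and 86.3 CPM in HP-AKI, against 279.5, 339 and 403 CPM in sham, a 5.97-fold fall (log2 fold change -2.58 ± 0.17, adjusted p 3.30e-09, edgeR). Ppp1r1a, an inhibitor of protein phosphatase 1, had 13.3, 15.9 and 24.0 CPM in HP-AKI, against 77.4, 87.9 and 99.0 CPM in sham, with HP-AKI 11 the highest of its group, and fell 5.24-fold (log2 fold change -2.39 ± 0.12, adjusted p 2.27e-10, edgeR). Irx1 and Irx2 are transcription factors of the Iroquois family. Irx2 had 11.8, 15.5 and 19.3 CPM in HP-AKI, against 11.1, 12.8 and 14.4 CPM in sham (log2 fold change 0.29 ± 0.11, adjusted p 0.0332, edgeR), a call made in 9 of 20 alternatives and lost without sham 3, 4, 5 or 6 or HP-AKI 7, 8, 9, 11 or 13 (0.19 to 0.28). The Irx2 call was also lost with upper-quartile scaling (0.24) and with no filter beyond 1 count (0.25). Irx1 had 6.16, 8.30 and 10.998 CPM in HP-AKI, against 7.49, 9.91 and 11.9 CPM in sham (log2 fold change -0.23 ± 0.15, 95% interval -0.55 to 0.09, adjusted p 0.173, edgeR), and without the 3 libraries it was called lower at -0.41.

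Ratios of 2 members within the same library do not depend on how libraries are scaled. For 10 pairs of paralogs or partners the ratio of RPKM (computed from the counts, 0.01 RPKM added) was compared with a 2-sided exact permutation test over the 12 libraries, whose smallest possible p is 0.00216, with adjustment over the 10. The ratio differed in 8 pairs (adjusted p below 0.05) and did not overlap between groups in 5. The pairs were chosen with earlier results of these data known, so these p-values add no independent support. No share over other gene pairs was computed. Umod to Slc12a1 was 27.8, 38.1 and 47.1 in HP-AKI, against 3.44, 4.49 and 5.54 in sham (lowest, median and highest), a difference of 3.13 in mean log2 ratio and the widest of the 10 (adjusted p 0.00433, exact permutation). Slc12a3 to Slc12a1 was 0.946, 1.22 and 1.60 in HP-AKI, against 0.295, 0.529 and 0.608 in sham (difference 1.43, adjusted p 0.00433, exact permutation), so the NCC message exceeded the NKCC2 message per length in 5 of 6 HP-AKI libraries and in no sham library. S100g to Calb1 was 46.2, 51.3 and 53.0 in HP-AKI, against 8.77, 10.5 and 13.1 in sham (difference 2.25, adjusted p 0.00433, exact permutation), and the 6 HP-AKI values lay close together.

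Klhl3 to Cul3 was 0.0208, 0.0394 and 0.0591 in HP-AKI, against 0.105, 0.177 and 0.216 in sham (difference -2.06, adjusted p 0.00433, exact permutation). Stk39 to Oxsr1 was 0.487, 0.634 and 0.693 in HP-AKI, against 0.719, 0.804 and 0.894 in sham, lower in HP-AKI by a small but non-overlapping amount (difference -0.38, adjusted p 0.00433, exact permutation). With overlap, Kcnj10 to Kcnj16 (0.59, adjusted p 0.0186, exact permutation), Trpm6 to Trpm7 (0.59, adjusted p 0.0108) and Irx2 to Irx1 (0.51, adjusted p 0.0244) were higher in HP-AKI. The Trpm6 to Trpm7 difference no longer passed without the 3 libraries (0.41, adjusted p 0.0794, exact permutation), nor did Irx2 to Irx1 without sham 3, 4, 5 or 6 or HP-AKI 9 (0.40 to 0.52). Wnk4 to Wnk1 (0.59, adjusted p 0.0770, exact permutation) and Atp1b1 to Fxyd2 (-0.48, adjusted p 0.139) did not pass. Wnk4 to Wnk1 passed without sham 5 (0.71) and without the 3 libraries (0.47), and without HP-AKI 8 both pairs did, at 0.77 and -0.64.

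**Figure D4:**
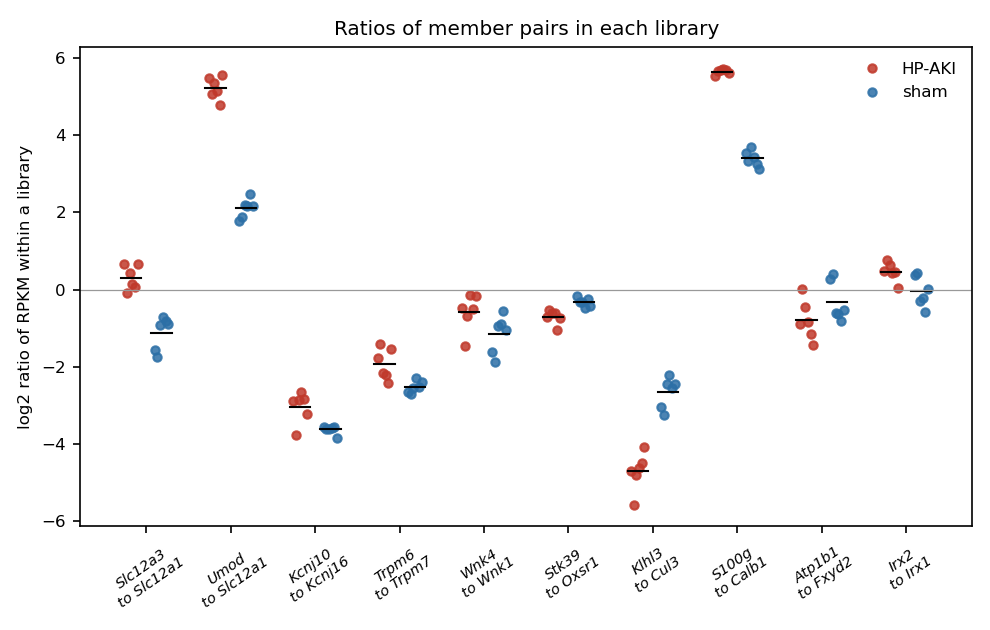
Log2 ratio of RPKM (y axis) of 10 pairs of members (x axis) in each library, with HP-AKI left of sham and the mean as a line (n = 6 each). The groups are apart for 5 pairs, most widely for Umod to Slc12a1 and S100g to Calb1.

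The members were then set beside 82 other genes of the same pathways in 6 lists, 78 of them tested, of which 21 rose and 38 fell. Over all genes tested, 37.7% were called higher and 35.2% lower, and the counts of several lists lie near those shares. Of 13 tested genes of thick ascending limb transport and signalling, 8 fell and 1 rose (median log2 fold change -0.88). Egf, whose kidney source is the thick ascending limb and distal convoluted tubule, had 118, 189 and 239 CPM in HP-AKI, against 2761, 2896 and 3020.2 CPM in sham, a 15.7-fold fall (adjusted p 5.72e-11, edgeR). Cldn10, a claudin gene whose transcripts are not separated by counts per gene, fell 5.01-fold and Ptger3, a prostaglandin receptor, 3.60-fold. Beside these falls, Cldn16, the claudin of paracellular magnesium, averaged 16.4 ± 1.36 CPM in HP-AKI and 16.0 ± 1.41 CPM in sham (SD, n = 6 each; log2 fold change 0.04, not called). Maged2, a gene of transient Bartter syndrome, was called higher at 0.31 but in 12 of 20 alternatives only, being lost without sham 1, sham 2, HP-AKI 7, HP-AKI 11 or HP-AKI 13 (0.23 to 0.29) and without the 3 libraries together (0.19, adjusted p 0.0723, edgeR). The Maged2 call was also lost with upper-quartile scaling (0.26) and with no filter beyond 1 count (0.27).

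Of 15 genes of calcium and magnesium handling, 7 rose and 6 fell (median 0.06). Slc41a1, a magnesium transporter of the distal tubule, rose 3.08-fold (59.4, 73.6 and 81.6 CPM in HP-AKI, against 19.3, 23.3 and 28.9 CPM in sham). The calcium channel Trpv6 rose 2.18-fold and the calcium pump Atp2b1 1.45-fold. Vdr, the vitamin D receptor, and Pth1r, the parathyroid hormone receptor, fell 2.85-fold and 3.38-fold. Of 15 genes of the WNK network, 6 rose and 5 fell (median 0.06). Cab39 and Cab39l, which encode the MO25 scaffold proteins that raise SPAK and OSR1 activity, moved apart, 1.504-fold higher and 2.28-fold lower. Klhl2, a relative of Klhl3, rose 1.399-fold. Among potassium-chloride cotransporters Slc12a4 rose 3.87-fold, while Slc12a7 fell 2.41-fold.

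Of 16 genes of aldosterone and SGK signalling, 5 rose and 7 fell (median 0.11). The 5 that rose were Zbtb16, Per1, Fkbp5, Rictor and Tsc22d3, at log2 fold changes of 3.15, 2.45, 1.85, 0.57 and 0.40. The 7 that fell were Hsd11b2, Usp2, Scnn1g, Sgk2, Nr3c1, Nr3c2 and Nedd4, at -1.36, -1.27, -0.88, -0.85, -0.72, -0.70 and -0.37. Zbtb16 had 59.6, 65.1 and 93.5 CPM in HP-AKI, against 2.39, 4.91 and 24.9 CPM in sham, and without sham 1, which held the highest sham value, its log2 fold change was 3.95. Fkbp5 had 336, 376 and 424 CPM in HP-AKI, against 80.2, 86.8 and 184 CPM in sham, and its highest sham value was also that of sham 1, although sham 1 was low for Sgk1 (87.4 CPM). The steroid receptors Nr3c1 and Nr3c2 fell 1.65-fold and 1.62-fold, and Hsd11b2, which shields the mineralocorticoid receptor from glucocorticoids, fell 2.57-fold. Of the sodium channel subunits, Scnn1g fell 1.84-fold, and Scnn1a (0.23) and Scnn1b (0.13) were not called.

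Of 8 tested sodium pump and FXYD genes, 4 fell and 1 rose (median -0.27). Fxyd5, a pump regulator of the FXYD family, rose 3.50-fold. Of 11 tested transcription factors of the distal nephron, 8 fell and 1 rose (median -0.84). Emx1 fell 6.26-fold, Esrrg 3.05-fold, Pou3f3 2.15-fold and Tfap2b 1.46-fold, while Tfap2a rose 2.01-fold. Adjusted p-values of the genes named in these lists as rising or falling ran up to 0.0244 (Maged2, edgeR).

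**Figure D5:**
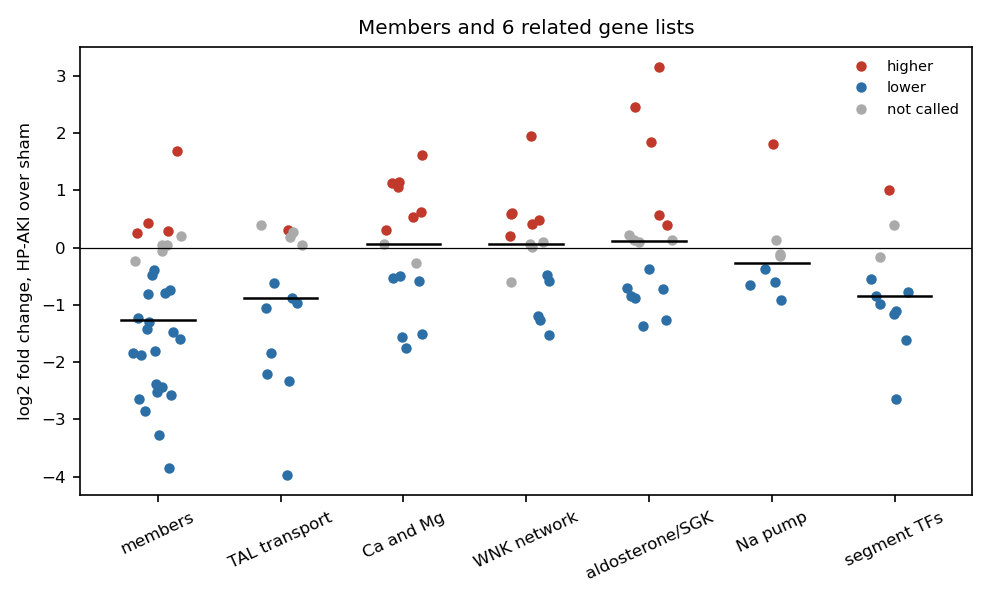
Log2 fold change (HP-AKI over sham, y axis) of the 30 members and of the tested genes of 6 related lists (x axis), with red for called higher, blue for called lower, grey for not called and the median as a line. The members have a median of -1.26, and the lowest list median is that of thick ascending limb transport at -0.88.

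Markers of other kidney cells moved too, and their part in the members' values was not tested. Over all genes tested, 37.7% were called higher and 35.2% lower. All 8 proximal tubule markers fell, with a summed level of 2689 to 4033 CPM in HP-AKI and 14280.1 to 15379 CPM in sham. Of 7 principal cell markers 5 fell and none rose (181 to 241 CPM in HP-AKI and 303 to 381 CPM in sham), and of 6 intercalated cell markers 4 fell and none rose (195 to 257 CPM in HP-AKI and 289.8 to 365 CPM in sham). Thin limb markers split into 3 higher and 3 lower (502 to 747 CPM in HP-AKI and 957 to 1465 CPM in sham). Aqp1 was the largest part of that sum, at means of 284 CPM in HP-AKI and 1140 CPM in sham. Cldn4 went the other way, at means of 182 CPM in HP-AKI and 9.42 CPM in sham. Podocyte, endothelial and fibroblast markers had 4 of 6 genes higher each, summing to 590.1 to 825 CPM in HP-AKI and 464 to 623 CPM in sham, to 599 to 924.1 CPM in HP-AKI and 532 to 621 CPM in sham, and to 513 to 678 CPM in HP-AKI and 361 to 429 CPM in sham, with 2, 1 and 0 lower. Macrophage markers had 2 higher and 2 lower of 6 (83.3 to 111 CPM in HP-AKI and 64.6 to 97.6 CPM in sham), and all 5 tested neutrophil markers rose (18.3 to 145 CPM in HP-AKI and 2.02 to 3.74 CPM in sham), Ly6g being too rare to test. The 6 skeletal muscle markers were too rare to test, at 0.343 to 0.854 CPM in HP-AKI and 0.152 to 0.562 CPM in sham. No marker of any list was at 0 in all libraries.

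Under GRCm38, with coordinates as deposited, the protein-coding genes on which these results turn are Umod (ENSMUSG00000030963, chromosome 7, 119462866 to 119479255), Slc12a1 (ENSMUSG00000027202, chromosome 2, 125152505 to 125230002), Slc12a3 (ENSMUSG00000031766, chromosome 8, 94329192 to 94366213), Kcnj1 (ENSMUSG00000041248, chromosome 9, 32372418 to 32399192), Pvalb (ENSMUSG00000005716, chromosome 15, 78191114 to 78206400) and Calb1 (ENSMUSG00000028222, chromosome 4, 15881264 to 15908064). Further ones are Slc8a1 (ENSMUSG00000054640, chromosome 17, 81388691 to 81649607), Trpm6 (ENSMUSG00000024727, chromosome 19, 18749983 to 18892510), Wnk1 (ENSMUSG00000045962, chromosome 6, 119923969 to 120038672), Klhl3 (ENSMUSG00000014164, chromosome 13, 58004221 to 58113592), Oxsr1 (ENSMUSG00000036737, chromosome 9, 119238432 to 119322427) and Sgk1 (ENSMUSG00000019970, chromosome 10, 21882184 to 21999903). In GENCODE vM21, exons of 5 members overlap exons of a gene on the other strand, namely Umod, Slc8a1, Wnk4, Atp1b1 and Nedd4l. The library kit does not mark strand, so reads of such pairs cannot be told apart. For Atp1b1 the partner Nme7 shares 575 exonic bases and had 8859 counts over all 12 libraries, against 1106905 for Atp1b1, and Umod shares 539 exonic bases with the antisense gene Gm44588, which is not analysed here.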

How the data were processed

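Mouse kidney RNA was sequenced in 12 libraries with a TruSeq RNA kit, per the labels' protocols. Per the submitters' processing notes, the tools were TopHat2 2.1.0, featureCounts and edgeR, on GRCm38, with no settings given. The authors deposited whole-number counts for each gene, without normalization. The deposited RPKM, made by the authors per listed gene length, rest on totals of 2.97 to 3.47 times the counts and were used in no test; RPKM named in the results were computed from the counts. The listed gene lengths served only for that.

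For testing, filterByExpr, TMM factors and the quasi-likelihood F-test of edgeR 4.0.16 were used under R 4.3.3 (limma-voom from limma 3.58.1), with Benjamini-Hochberg adjustment over 17470 genes. The SE is the log2 fold change divided by the square root of F, and its median over all genes was 0.14. Ratios were compared by exact permutation. The edgeR, limma-voom and DESeq2 fits were tried on simulated counts in which few genes changed, unlike these data. The ratio tests and the motif search were not simulated. Python 3.11.15 and GENCODE vM21 served tables and annotation.

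The members, lists, pairs and the 3 libraries left out together were chosen with earlier results of these data known. All members are named, with the largest called rise and fall of each list and further list genes chosen after their values were seen. Some list genes are not reported here. Adgre1 was matched by identifier. Among others, Avpr2, Scnn1g, Hsd11b2 and Fxyd4 stand in a pathway list and a marker list. Alternatives were RLE, upper-quartile and library-size scaling, 2 filters, DESeq2 1.42.0, limma-voom, leaving out each library and leaving out 3 libraries.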

Additional observations from a re-analysis of the deposited data

Results flagged for a closer look

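Among 154 groups of 6 values (members, named list genes and ratios), 11 had 1 library far from the other 5, where chance alone gives about 1 in 20. HP-AKI 8 was far above the other HP-AKI libraries for Kcnj16 (431 CPM, others 251 to 289), Trpm7 (252 CPM, others 184 to 203) and Cul3 (334 CPM, others 243 to 276). It was far below them for Slc41a1 (59.4 CPM, others 73.4 to 81.6). HP-AKI 11 stood high for Ppp1r1a (24.0 CPM, others 13.3 to 16.7) and low for Klhl2 (73.2 CPM, others 83.2 to 87.9). HP-AKI 13 stood high for Zbtb16 (93.5 CPM, others 59.6 to 72.0) and Emx1 (1.38 CPM, others 0.408 to 0.738). Sham 1 stood high among sham libraries for Zbtb16 (24.9 CPM, others 2.39 to 6.07) and Fkbp5 (184 CPM, others 80.2 to 106). The ratio of Kcnj10 to Kcnj16 was low in sham 6 (0.0697, others 0.0816 to 0.0850).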

How the results depend on the processing

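Of the 30 members, 25 kept their call in all 20 alternatives, and Umod, S100g, Cul3, Irx1 and Irx2 did not. The count of members lower ran from 20 to 22, and all genes called from 11163 to 14633. The count of members higher was 4 and ran from 2 to 5 over the alternatives. It was 2 with upper-quartile factors or with no filter beyond 1 count, 3 with RLE factors and 5 with library size only. When 1 library was left out it was 2 to 4. Without sham 1, sham 2 and HP-AKI 8, the log2 ratio difference of Trpm6 to Trpm7 was 0.41 and no longer passed, and that of Wnk4 to Wnk1 was 0.47 and passed. Leaving out 1 library gave 0.45 to 0.77 for Wnk4 to Wnk1, -0.64 to -0.33 for Atp1b1 to Fxyd2 and 0.40 to 0.60 for Irx2 to Irx1. The causes were not tested. With library size as the only scaling, the median log2 fold change over all genes was 0.16, against 0.04, and small changes hold relative to that shift. No paired analysis was possible because the groups share no sample numbers. Intervals cover the spread between these libraries, and 6 libraries a group limit what small differences can be seen.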
